A study of Mus musculus with 3 samples.

Results

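The NF-kB subunit and inhibitor genes are described here in the mouse cornea, the clear window at the front of the eye. The 10 genes were chosen by name, 5 subunits (Nfkb1, Nfkb2, Rela, Relb and Rel) and 5 inhibitors (Nfkbia, Nfkbib, Nfkbie, Nfkbiz and Tnfaip3), and all 10 were found among the 21760 genes of the deposited count table. RNA was sequenced in 3 libraries, 1 per group. The sham library came from mice with an incision near the lacrimal glands that spared the glands. The excision library came from mice whose lacrimal gland, the source of the watery tears, was removed to model tear-deficient dry eye. The PNU-282987 library came from mice given PNU-282987, which activates α7 nicotinic acetylcholine receptors, as eyedrops 3 times a day. The labels do not say whether those mice had also lost the gland, whether corneas were pooled, or which strain, sex, age and time after surgery the libraries represent. The study asked how the α7 receptor acts in dry eye disease.

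NF-kB is a family of transcription factors that work as dimers of the subunits. In resting cells the dimers are held in the cytoplasm by IkB proteins. A ligand such as TNF or IL-1 activates the IkB kinases, the IkB protein is phosphorylated and degraded, and the freed dimer enters the nucleus and switches on inflammatory genes. Some of those genes encode the pathway's own inhibitors, among them Nfkbia and Tnfaip3, which closes a negative feedback loop. In the corneal surface the pathway responds to injury, microbes and hyperosmolar tears.

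With 1 library per group, the spread between animals was not measured, no test was possible, and every ratio below compares 2 libraries. Counts were scaled to library size and are given as raw counts and as CPM, the scaled unit. Each ratio carries a 95% interval for counting error, which leaves out the spread between animals. A gene was called where the difference reached 2-fold and equal levels lay outside the interval. Where 3 values stand in a row, the first is sham, the second excision and the third PNU-282987. All 10 genes reached the minimum of 20 counts in at least 1 library, as did 14180 genes of the table. Nfkbie passed with 22, 28 and 71 counts, and the other 9 genes had at least 234 counts in every library. In bulk tissue, fewer cells of a type and less RNA per cell cannot be told apart. The 3 comparisons share libraries and are not independent of each other.

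Most of the family was at a similar level in the 3 libraries, and the larger differences lay in some of the inhibitors. The numbers of called genes were close to the background of all measured genes, given below. Tnfaip3 and Nfkbia, both feedback inhibitors, were highest in sham, lower in excision and lowest in PNU-282987. Nfkbie was highest in PNU-282987, on few counts. None of the 5 subunits differed by 2-fold in any comparison.

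**Figure D1:**
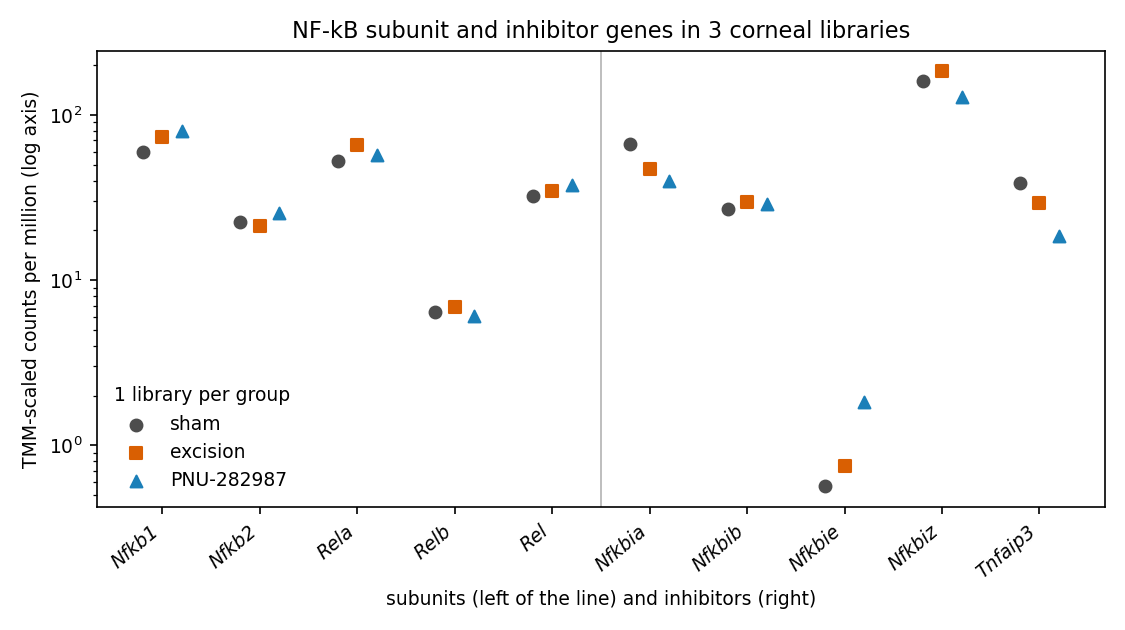
TMM-scaled CPM (log axis) of each gene, with 1 point per library. The sham, excision and PNU-282987 points of every subunit lie close together, whereas Nfkbia and Tnfaip3 step down from sham to PNU-282987 and Nfkbie steps up from 0.563 to 1.83 CPM.

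Among the subunits, Rela encodes p65, the transactivating partner of the classical dimer. It had 2059 counts in the sham library, 2440 after excision and 2216 with PNU-282987, which is 52.7, 65.7 and 57.1 CPM. Excision was the high library, 1.25-fold above sham (1.175 to 1.32), and PNU-282987 was 1.15-fold below excision (1.087 to 1.22). Nfkb1 encodes p105, the precursor of the p50 subunit that pairs with p65. It had 2318, 2739 and 3113 counts, or 59.4, 73.8 and 80.2 CPM. It was lowest in sham and highest in PNU-282987, with ratios of 1.24 for excision against sham (1.176 to 1.31), 1.09 for PNU-282987 against excision (1.03 to 1.14) and 1.35 for PNU-282987 against sham (1.28 to 1.43). The last was the largest difference of any subunit.

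Rel encodes c-Rel, a subunit best known from lymphocytes, and had 1266, 1292 and 1451 counts. Its ratio was 1.15 for PNU-282987 against sham (1.07 to 1.24), and the intervals for excision against sham (0.993 to 1.16) and for PNU-282987 against excision (0.995 to 1.16) included equal levels. With DESeq2 size factors, or totals without the most abundant genes, the latter lay above equal levels.

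In the non-canonical branch the kinase NIK drives processing of p100 to p52. Between the highest and lowest library, its 2 genes differed by 1.20-fold (Nfkb2) and 1.14-fold (Relb). Nfkb2, which encodes p100, had 872, 786 and 989 counts. PNU-282987 was the high library, at 1.20-fold against excision (1.09 to 1.32) and 1.14-fold against sham (1.04 to 1.25). Relb, the partner of p52, had 249, 256 and 234 counts, and all 3 of its intervals included equal levels. They ran from 0.905 to 1.29 for excision against sham, from 0.729 to 1.05 for PNU-282987 against excision and from 0.787 to 1.13 for PNU-282987 against sham, so a difference of 2-fold lay outside each. In the annotation used here, exons of Nfkb2 overlap those of AC114539.1, a non-coding RNA gene, over 531 bases and those of Psd over 299 bases, both on the opposite strand. Without a stated strand setting, reads there cannot be told apart. Psd had 31, 36 and 26 counts, and AC114539.1 was not analysed here.

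Among the inhibitors, Nfkbia encodes IkBα, the classical inhibitor of p65 dimers. It had 2604 counts in the sham library, 1751 after excision and 1550 with PNU-282987, which is 66.7, 47.2 and 39.9 CPM. Sham was the high library. Nfkbia was 1.41-fold lower in excision than in sham (1.33 to 1.503), 1.18-fold lower in PNU-282987 than in excision (1.10 to 1.27) and 1.67-fold lower in PNU-282987 than in sham (1.57 to 1.78), so none of its differences reached 2-fold.

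Tnfaip3 encodes A20, a ubiquitin-editing enzyme that shuts off signalling upstream of the IkB kinases. It had 1520 counts in the sham library, 1083 after excision and 717 with PNU-282987, which is 38.9, 29.2 and 18.5 CPM. The libraries followed the same order as for Nfkbia. Tnfaip3 was 1.33-fold lower in excision than in sham (1.23 to 1.44) and 1.58-fold lower in PNU-282987 than in excision (1.44 to 1.74). In PNU-282987 against sham it was 2.11-fold lower (1.93 to 2.31), which met the 2-fold rule by a small margin, and 4.77% of all measured genes had a ratio as low or lower.

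Nfkbie encodes IkBε, another cytoplasmic IkB. With 22 counts in the sham library, 28 after excision and 71 with PNU-282987 (0.563, 0.754 and 1.83 CPM) it was the least abundant gene of the family. PNU-282987 was the high library, at 2.42-fold against excision (1.545 to 3.90) and 3.25-fold against sham (1.99 to 5.50), and sham and excision were not distinguishable at this depth (1.34-fold, 0.739 to 2.46). Of measured genes 1.001% had a ratio as high or higher in PNU-282987 against sham, but the interval spans a wide range because the counts are low.

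Nfkbiz encodes IkBζ, a nuclear IkB that does not retain dimers in the cytoplasm and is known both to inhibit and to co-activate NF-kB targets. It was the most abundant gene of the family by CPM, with 6230, 6792 and 4983 counts (159.5, 183.0 and 128.3 CPM). PNU-282987 was the low library, 1.43-fold below excision (1.37 to 1.48) and 1.24-fold below sham (1.198 to 1.29), whereas excision was 1.15-fold above sham (1.11 to 1.19). Nfkbib encodes IkBβ, a slower acting cytoplasmic IkB, and was nearly level at 1048, 1104 and 1115 counts. Its largest ratio was 1.11, for excision against sham (1.02 to 1.21). Nfkbib shares 314 exonic bases with Ccer2 and 42 with Sirt2 on the opposite strand, and Sirt2 had 2038, 2049 and 2161 counts, which were level too.

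**Figure D2:**
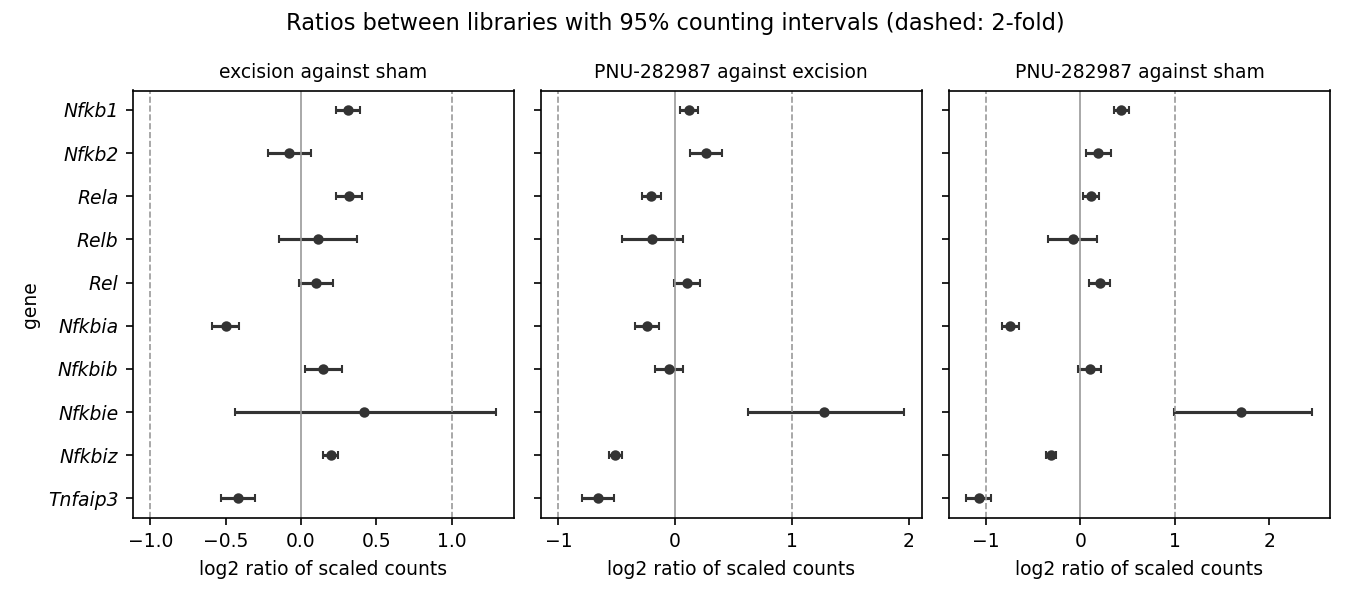
Log2 ratio of scaled counts for each gene in the 3 comparisons, with the 95% counting interval as a bar and 2-fold as dashed lines. Only Tnfaip3 in PNU-282987 against sham (-1.08) and Nfkbie in PNU-282987 against excision (1.28) and against sham (1.70) lie past a dashed line.

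Read against all measured genes, these counts are close to the background. In excision against sham 0 of 10 genes were called, where 9.49% of all measured genes were. In PNU-282987 against excision 1 of 10 was called, Nfkbie, against a background of 9.52% in either direction and 3.90% higher. In PNU-282987 against sham 2 of 10 were called, against a background of 7.54%. They were Nfkbie, higher as were 2.58% of all measured genes, and Tnfaip3, lower as were 4.96%. The interval alone, with no fold threshold, excluded equal levels for 6 of 10 genes in excision against sham (59.8% of all measured genes), for 7 in PNU-282987 against excision (63.2%) and for 8 in PNU-282987 against sham (57.7%). Such small differences were thus common in the whole table. Intervals narrow as counts rise, so the shares by interval, here and below, depend on depth. The background was not matched for it. The median log2 ratio of the 10 genes was 0.13, -0.12 and 0.11 in the 3 comparisons, beside -0.0026, 0.0076 and 0.0003 over all measured genes.

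By role, the 5 subunits and 5 inhibitors had different medians in the comparison of PNU-282987 with sham. The subunit median was 0.19 on the log2 scale, with 4 of 5 intervals above equal levels, as for 30.0% of all measured genes, and none below. Under scaling to total counts, the intervals of Nfkb2 and Rela in that comparison included equal levels, which left Nfkb1 and Rel. The inhibitor median was -0.31, with 3 of 5 intervals below equal levels (Nfkbia, Nfkbiz and Tnfaip3), as for 27.7% of all measured genes, and 1 above (Nfkbie). In PNU-282987 against excision the medians were 0.10 for subunits and -0.24 for inhibitors. In excision against sham they were 0.11 and 0.15, as Nfkbia and Tnfaip3 were lower while Nfkbiz and Nfkbib were higher. With scaling to total counts, the interval of Nfkbib there included equal levels and that of Nfkb2 fell below them.

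The balance between the roles can be read within each library, where it does not depend on scaling. Inhibitor genes took 11424 of the 18188 counts of the family in the sham library, 10758 of 18271 after excision and 8436 of 16439 with PNU-282987. That is 62.8% for sham (exact Clopper-Pearson 95% interval 62.1 to 63.5), 58.9% for excision (58.2 to 59.6) and 51.3% for PNU-282987 (50.55 to 52.1). The share was lowest in PNU-282987 and the 3 counting intervals did not overlap. Without Nfkbia it was 56.6%, 54.5% and 46.25%. Without Nfkbiz, which held the most counts and is not a purely inhibitory protein, it was 43.4%, 34.55% and 30.1%. The order of the libraries was thus the same in each version, while the levels depend on which genes are summed and on their lengths. Every version kept Tnfaip3 and at least Nfkbia or Nfkbiz, all of which were lowest in PNU-282987. Nfkbib was nearly level and Nfkbie was highest in PNU-282987. The order thus rests on a few genes and was not shared by every inhibitor.

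**Figure D3:**
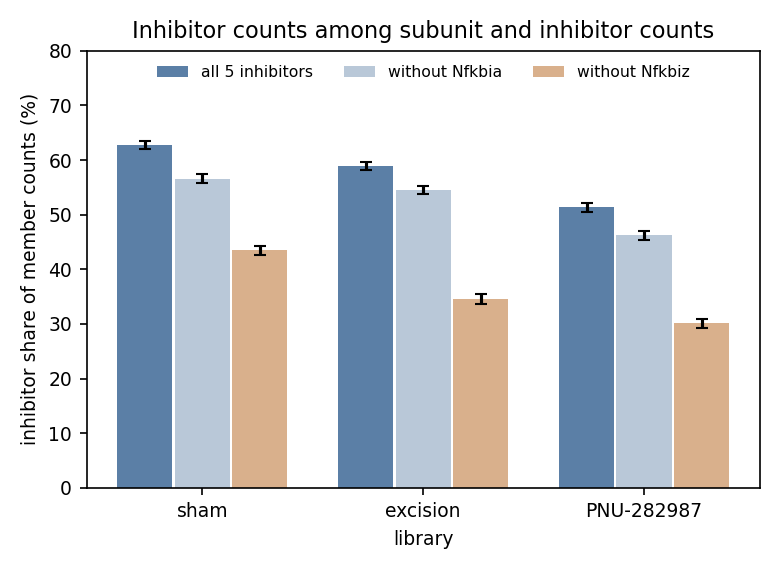
Share of inhibitor counts among the counts of the subunit and inhibitor genes (%), with exact 95% binomial intervals, for all 5 inhibitors and without Nfkbia or Nfkbiz. In each version the bar is highest in sham and lowest in PNU-282987.

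Counts per Rela count are likewise independent of scaling and show the steps gene by gene. For Nfkbia there were 1.265, 0.718 and 0.6995 counts per Rela count, so that sham stood apart and excision and PNU-282987 lay close together. For Tnfaip3 the values were 0.738, 0.444 and 0.324, a step at each comparison. For Nfkb1 they were 1.126, 1.123 and 1.405, level between sham and excision and higher in PNU-282987. For Nfkbiz they were 3.03, 2.78 and 2.25. Because Rela itself was highest in excision, these quotients place excision lower than CPM does.

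Levels were also compared between genes per length, as CPM per kilobase of annotated exon, with lengths from GENCODE M21 since the annotation used for counting is not given in the sources used here. In sham the order was Nfkbia (41.4), Nfkbiz (31.8), Rela (17.2), Nfkbib (12.4), Tnfaip3 (5.39), Nfkb1 (4.92), Nfkb2 (4.87), Rel (4.34), Relb (1.64) and Nfkbie (0.185). Nfkb1 and Nfkb2 did not differ beyond counting error there. In excision Nfkbiz (36.5) was above Nfkbia (29.3), and Tnfaip3 (4.04) came eighth, below Rel (4.66) and Nfkb2 (4.62), which did not differ. In PNU-282987 Nfkbiz (25.6) and Nfkbia (24.8) did not differ beyond counting error, and Tnfaip3 (2.555) was again eighth. Rela remained the third and Nfkbib the fourth of the 10 in all 3 libraries.

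The sequences just before the start sites of the 3 genes whose levels differed most are shown because several inhibitor genes are known targets of NF-kB itself. They are the 250 bases upstream of the annotated start, 5′ to 3′ on the gene's strand, from RefSeq on GRCm38.p6, and the capitals mark matches to the 10-base kB consensus motif on either strand. The windows are chr10:19015411-19015660 on the minus strand for Tnfaip3, chr12:55492648-55492897 on the minus strand for Nfkbia and chr17:45555450-45555699 on the plus strand for Nfkbie.
Tnfaip3: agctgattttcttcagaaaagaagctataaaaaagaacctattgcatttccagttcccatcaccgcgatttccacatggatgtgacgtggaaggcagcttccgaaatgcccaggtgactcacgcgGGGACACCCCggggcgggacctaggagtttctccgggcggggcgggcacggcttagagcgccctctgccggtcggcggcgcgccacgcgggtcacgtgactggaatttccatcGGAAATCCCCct
Nfkbia: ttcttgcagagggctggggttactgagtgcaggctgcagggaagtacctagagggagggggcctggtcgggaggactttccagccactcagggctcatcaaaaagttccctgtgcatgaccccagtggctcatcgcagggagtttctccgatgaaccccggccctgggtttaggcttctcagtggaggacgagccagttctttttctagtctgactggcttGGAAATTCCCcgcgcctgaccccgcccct
Nfkbie: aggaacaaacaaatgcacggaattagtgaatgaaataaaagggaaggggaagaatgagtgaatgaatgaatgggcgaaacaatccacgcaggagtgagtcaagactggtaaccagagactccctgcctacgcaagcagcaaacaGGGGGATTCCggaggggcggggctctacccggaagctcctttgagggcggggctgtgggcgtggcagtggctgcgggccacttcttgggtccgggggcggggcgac

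Tnfaip3 holds 2 such matches, which begin 125 and 12 bases before the start site. Nfkbia holds 1, at 29 bases, and Nfkbie holds 1, at 106 bases. Tnfaip3 has a further annotated start without a match in its window. A window was found for 7 of the 10 genes, and at least 1 match was present for 5 of them, the other genes being Nfkb2 and Rel, in both of which matches overlap each other. Rela and Nfkbib had no match, and Nfkb1, Relb and Nfkbiz had no window. By gene, 4.455% of the 27025 genes with a window of that length had a match in at least 1 of their windows. Among the listed NF-kB target genes it was 9 of the 21 with a window. A match describes the letters only.

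The other genes of the pathway were taken from 6 lists by role, with 90 measured genes in all. Of these, 3 were called higher and 5 lower in excision against sham, 4 higher and 6 lower in PNU-282987 against excision, and 1 higher and 7 lower in PNU-282987 against sham. That is 8.89%, 11.1% and 8.89% of the 90, close to the 9.49%, 9.52% and 7.54% of all measured genes. Of the 3 genes called higher in excision against sham, Ccl5 and Nfkbid passed the minimum of 20 counts through excision alone, so that only Mmp3 was called higher at a minimum of 100 counts. Ccl5 and Nfkbid were also called lower in PNU-282987 against excision. Cxcl1, called lower than sham in both other libraries, passed through sham alone. The filter thus bears on those lower calls as well.

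**Figure D4:**
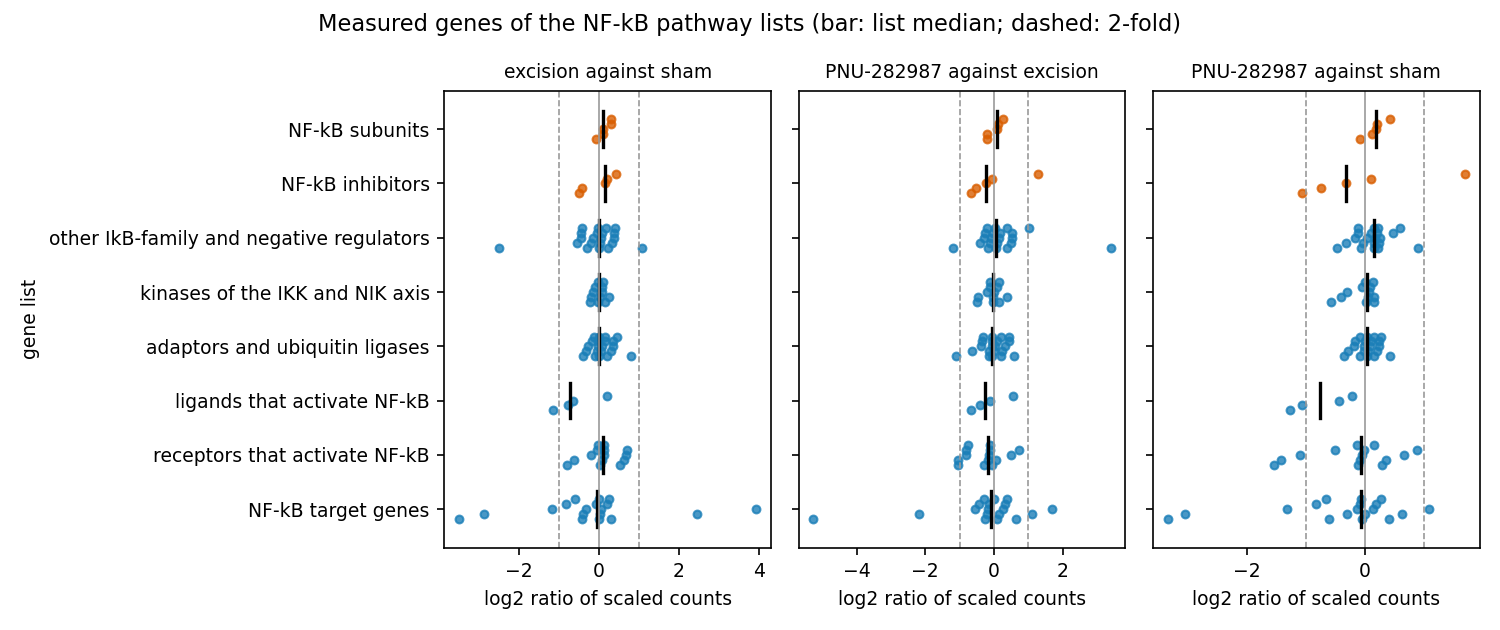
Log2 ratio of scaled counts for every measured gene of the subunits and inhibitors (orange) and of the 6 other lists (blue), with the list median as a bar and 2-fold as dashed lines. The genes of the kinase list lie inside the 2-fold lines in all 3 comparisons, and target genes spread the most, from -5.25 to 3.94.

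The genes of the kinase list, which also holds regulatory and adaptor subunits such as Ikbkg and Tab1, differed by less than 2-fold throughout. Of the 12 measured genes of this list 0 were called in any comparison, beside the background of 7.54% to 9.52%. Their medians were 0.01, -0.02 and 0.04. Their intervals excluded equal levels for 5, 6 and 7 of the 12, beside 59.8%, 63.2% and 57.7% of all measured genes. Chuk and Ikbkb, which encode the catalytic subunits of the IkB kinase, had 2193, 1835 and 1776 counts and 1868, 1754 and 1957 counts. Ikbkg, for the regulatory subunit NEMO, had 1642, 1340 and 1808. The largest difference of the list was that of Map3k8, a kinase that binds the Nfkb1 product p105, with 882, 793 and 587 counts and a log2 ratio of -0.58 for PNU-282987 against sham.

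Among 21 measured adaptors and ubiquitin ligases, 1 gene was called in PNU-282987 against excision and none in the other comparisons, beside the same background. Rnf31 encodes HOIP, the catalytic subunit of the complex that builds linear ubiquitin chains. It had 835, 1393 and 680 counts, so excision was the high library and PNU-282987 was 2.14-fold lower than excision. Its partners Rbck1 (2138, 2612 and 2115 counts) and Sharpin (950, 949 and 946) were not called. Myd88, the adaptor of IL-1 and Toll-like receptors, had 1714, 1641 and 2023 counts.

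Of the other 21 negative regulators, 2 were called in excision against sham, 3 in PNU-282987 against excision and none in PNU-282987 against sham, where 9.49%, 9.52% and 7.54% of all measured genes were. Tnip3, a partner of A20, had 71, 12 and 132 counts. Excision was the low library, 5.62-fold below sham (3.03 to 11.4), and PNU-282987 was 10.5-fold above excision. Irak3, an inhibitor of IL-1 and Toll-like receptor signalling, had 84, 60 and 127 counts and was 2.02-fold higher in PNU-282987 than in excision. Nfkbid, which encodes a nuclear IkB, had 12, 24 and 11 counts, at the edge of what was measured. The deubiquitinase Cyld (2664, 2313 and 3142 counts), the A20 partner Tnip1 (1671, 1614 and 1711) and the atypical IkB gene Bcl3 (648, 642 and 746) were not called.

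Of 14 listed ligand genes 4 were measured. The table held 8 of the 14 under the symbols listed, and the other 6 (Cd40lg, Il17a, Il36a, Il36b, Il36g and Tnfsf11) were not analysed here. Tnf had 816, 352 and 337 counts. It was called lower than sham in both other libraries, by 2.20-fold after excision and 2.41-fold with PNU-282987, and excision and PNU-282987 were close to each other. Ltb, which encodes a membrane ligand of the non-canonical branch, had 76, 46 and 36 counts and was 2.10-fold lower in PNU-282987 than in sham. Il1a, an epithelial alarm cytokine, had 2134, 1194 and 1834 counts and was not called.

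Of 14 measured receptor genes, 3 were called lower in PNU-282987 against sham and none higher, beside 4.96% lower and 2.58% higher over all measured genes. Cd40 had 146, 91 and 54 counts (2.69-fold lower), Tnfrsf11a, which encodes RANK, had 67, 37 and 23 (2.90-fold lower), and Tnfrsf12a, the receptor of TWEAK, had 811, 751 and 378 (2.13-fold lower). Tnfrsf12a was also lower in PNU-282987 than in excision (2.08-fold), as was the IL-1 receptor gene Il1r1 (339, 470 and 237 counts, 2.07-fold). The main TNF receptor gene Tnfrsf1a was level at 3756, 3778 and 4151 counts. Cd40 had the library order of Tnfaip3 and Nfkbia, with sham high and PNU-282987 low, and its intervals excluded equal levels in all 3 comparisons. Tnfrsf11a and Ltb took that order too. Their intervals for PNU-282987 against excision included equal levels (0.337 to 1.03 and 0.470 to 1.18). By scaled counts other listed genes also took this order, not all beyond counting error, among them Tnf, Tnfrsf12a, Plau and Ier3.

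Target genes went in several directions, and their list medians were near 0 in all 3 comparisons (-0.03, -0.08 and -0.07 on the log2 scale, 18 of 29 genes measured). The neutrophil-attracting chemokine genes Cxcl1 (100, 13 and 12 counts) and Cxcl2 (225, 19 and 22 counts) were lower than sham in both other libraries. The T cell chemokine gene Ccl5 (5, 73 and 2 counts) and the metalloproteinase gene Mmp3 (97, 505 and 116) were highest in excision, on few counts for Ccl5. Icam1, an adhesion molecule for leukocytes, had 65, 41 and 138 counts and was higher in PNU-282987 than in excision (3.22-fold) and in sham (2.135-fold). Ptgs2, which encodes an inducible prostaglandin synthase, had 40, 17 and 38 counts and was low in excision. More abundant targets were not called, among them Sod2 (4051, 3686 and 4606 counts), Bcl2l1 (4289, 4181 and 4679) and Ier3 (6549, 4651 and 4261).

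By likeness of pattern over the 3 libraries, measured as the distance between the log2 ratios of excision and PNU-282987 to sham, the nearest of the 90 pathway genes to Tnfaip3 were Ltb (0.24), Tnfrsf12a (0.38) and Cd40 (0.40). The nearest to Nfkbie were Il1rap (0.86), Tlr3 (1.08) and Lif (1.14), none of them close. With 3 libraries many genes share an order, and the distances describe these libraries only.

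The libraries also differed in the cell types and tissues they carried. Corneal epithelial markers dominated all 3, with summed levels of 82970, 78820 and 94150 CPM over 11 measured genes, and Krt3 of that list was not analysed here. Neutrophil markers summed to 63.3, 32.5 and 59.8 CPM (7 of 12 measured), with Ly6g at 0 in excision. By gene most were highest in sham, with 6 of the 7 called lower in excision and 5 of the 7 called lower in PNU-282987 than in sham (median log2 ratios -2.43 and -1.48). In each of the 2 comparisons 1 interval lay above equal levels. Of all 14180 measured genes, 777 were called lower in excision against sham, and 4.96% were called lower in PNU-282987 against sham. Macrophage and monocyte markers summed to 204, 306 and 215 CPM (12 of 14 measured, none at 0), and T and NK cell markers to 0.359, 6.12 and 0.850 CPM (4 of 12 measured), with Cd3d, Cd3g, Cd4, Cd8a and Cd8b1 at 0 in sham, Klrb1c at 0 in excision, and Cd3g and Klrb1c at 0 in PNU-282987. B cell markers were near the detection limit (1.72, 1.27 and 1.93 CPM, 1 of 6 measured, Cd79a at 0 in excision).

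Beside the step down of Tnfaip3 and Nfkbia from sham to PNU-282987, the summed red blood cell markers took the same order, at 71.8, 17.2 and 9.61 CPM (all 5 measured, none at 0), and the neutrophil markers above were mostly lower than sham in both other libraries. Vessel markers summed to 4.97, 4.66 and 3.81 CPM (4 of 8 measured, Tek and Emcn at 0 in sham), but went both ways by gene, with a median log2 ratio of 0.69 in excision against sham and 2 intervals above and 1 below equal levels. Keratocyte and stromal markers were also highest in sham (1910, 1281 and 1397 CPM, all 10 measured). Beside the high Nfkbie in PNU-282987, summed conjunctival and gland markers were also highest in that library, at 2101, 3476 and 5440 CPM (all 9 measured). By gene, in excision against sham 4 of the 9 intervals lay above equal levels, 1 lay below and 4 included them. All 9 markers were called higher in PNU-282987 than in sham, as were 2.58% of all measured genes. Their median log2 ratio was 5.22, far more than the sums show. Scgb2b2 was at 0 in sham and excision, Tff1 at 0 in sham and Muc5b at 0 in excision. Scgb2b2 thus passed the minimum count through PNU-282987 alone. Neither Scgb2b2 nor Tff1 could be called lower than sham, and their ratios to sham rest on the floor set for a count of 0. Both genes enter the 9 calls and the median of 5.22 for PNU-282987 against sham. Lens markers (792, 164 and 750 CPM, Mip at 0 in excision) and corneal endothelial markers (924, 465 and 708 CPM) were low in excision. Their median log2 ratios in excision against sham were -5.69 for lens and -2.36 for endothelium, far more than the sums show. There 1 endothelial interval lay above equal levels, and 0 lens intervals did. The part of these cells and tissues in the results for Tnfaip3, Nfkbia and Nfkbie was not tested.

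Immediate-early genes, which respond to handling of tissue within minutes to hours, were added after the data were seen, since Nfkbia and Tnfaip3 are induced as fast. Their summed level was 951, 1133 and 860 CPM, with 13 of 15 genes measured and none at 0. Excision was the high library here, with Fosb (105, 318 and 77 counts), Atf3 (71, 166 and 40) and Dusp1 (2135, 4228 and 2200) called higher than in sham, and 11 of 13 intervals above equal levels. Of all 14180 measured genes, 568 were called higher there and 4200 had an interval above equal levels. Ier3 (6549, 4651 and 4261 counts) and Btg2 (2002, 1269 and 1434) were instead highest in sham, as were Nfkbia and Tnfaip3. In PNU-282987 against sham 0 of the 13 were called, beside 7.54% of all measured genes. There 7 intervals lay below and 4 above equal levels, beside 27.7% and 30.0% of all measured genes, and the median log2 ratio was -0.12. The part of such early responses in the results for Nfkbia and Tnfaip3 was not tested.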

How the data were processed

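Corneal RNA was sequenced in 3 libraries, with total counts of 37703843 (sham), 37692972 (excision) and 39616004 (PNU-282987). The authors deposited whole-number read counts per gene, which were used unchanged. The library kit was VAHTS Universal V6, per the labels' protocols. HTSeq and R 3.2.0 appear in the submitters' processing notes. For the aligner, genome build, annotation and strand setting, nothing is given in the sources used here.

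Counts were scaled with TMM factors (1.04, 0.985 and 0.980 in the order above) from edgeR 4.0.16 in R 4.3.3. Alternatives were DESeq2 1.42.0 size factors, total counts, and totals without the 100 most abundant genes of each library. Ratios were computed with SciPy 1.17.1 in Python 3.11.15 for every gene that reached 20 counts in 1 library or more. The 95% interval of a ratio is the exact conditional binomial one. Sequenced reads carry no molecular identifiers and so are not independent, and the intervals and floors cover counting error alone. A count of 0 was set to a floor of 3 counts per library (0.0768, 0.0808 and 0.0773 CPM). The ratio and call scheme was tested on simulated counts that carried counting error alone, as the interval assumes. That simulation held no spread between animals and no TMM scaling.

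The members, lists, thresholds and alternatives were chosen with earlier results of these data known. All 10 members are named, and per pathway list and comparison the 4 called genes with the largest ratio. Pathway genes that were not called, and the immediate-early genes, were named after their values were seen.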

Additional observations from a re-analysis of the deposited data

How the results depend on the processing

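Another scaling (total counts, DESeq2 size factors, or totals without the most abundant genes) changed no call and no sign among the 90 recomputed log2 ratios of the 10 genes. The largest shift was 0.08, and 5 ratios moved outside their counting interval. Nfkbie fell below a minimum of 100 counts, which left 9 genes of the family, with 0 called in PNU-282987 against excision and 1 in PNU-282987 against sham. At 1.5-fold, 2 of 10 were called in PNU-282987 against excision, beside 2663 of 14180 measured genes. In PNU-282987 against sham 3 of 10 were called, beside 2088 of 14180, and in excision against sham 0 of 10, beside 2447 of 14180. Over all genes the calls in excision against sham, PNU-282987 against excision and PNU-282987 against sham were 1345, 1350 and 1069 of 14180. They were 2025, 2033 and 1729 of 21760 with no filter, 550, 511 and 326 of 11431 at 100 counts, and 2447, 2663 and 2088 of 14180 at 1.5-fold. Pathway list calls were 8, 10 and 8, against 18, 17 and 16 at 1.5-fold, and 5 in excision against sham at 100 counts. The inhibitor share without Nfkbia was 56.6% (sham), 54.5% (excision) and 46.25% (PNU-282987), and without Nfkbiz, a version added after the data were seen, 43.4%, 34.55% and 30.1%. No paired analysis was possible because each group has 1 library, and for the same reason no replicate could be left out. Depth limits Nfkbie above all, at 22 to 71 counts.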
